A study of Mus musculus with 20 samples.

Results

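Transcription factors that establish and maintain the hepatocyte lineage were examined in mouse liver RNA-seq: Hnf4a, Foxa1, Foxa2, Foxa3, Cebpa, Cebpb, Onecut1, Prox1 and Nr5a2. They were taken from the gene count table by symbol, which gave 9 of the 55421 genes listed, and all 9 had enough counts to be tested. The libraries came from whole liver of wildtype C57BL/6 mice, labelled female, that received AAV8-Tbg-saCAS9/U6-sgRNA at 6 months of age through the retro-orbital vein. In this vector the Tbg promoter, which is active in hepatocytes, drives the Cas9 of Staphylococcus aureus, and U6 drives the guide RNA. The guide targeted either Rosa26, a locus used as a neutral control (Rosa26 group), or Hira (HIRA group), whose product is a chaperone that places the histone variant H3.3 independently of DNA replication. Livers were taken 3 weeks or 6 months after injection, which gave 4 groups of 5 mice and 20 libraries. The study's own text calls the mice of this experiment male in one passage and female in another, and the labels are followed here. All 20 mice carried Cas9 and a virus, and no group without a vector was analysed here.

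Hepatocyte identity is held by a small circuit of transcription factors that bind together at liver enhancers and promoters and act on each other's genes. HNF4A is a nuclear receptor that drives genes of lipid, drug and plasma protein metabolism, the FOXA proteins open chromatin early in liver development, the C/EBP proteins couple differentiation to metabolism and inflammation, and ONECUT1, PROX1 and NR5A2 take part in the choice between hepatocyte and bile duct fates, in liver growth and in bile acid metabolism. The study asked whether loss of HIRA erodes hepatocyte identity.

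The libraries held 19916430 to 24079736 gene counts each. Hira itself had 128, 171, 158, 134 and 136 counts in the Rosa26 group at 3 weeks against 126, 127, 90, 104 and 87 in the HIRA group, and in CPM, counts scaled to a common library size with TMM, those groups did not overlap. Its log2 fold change was -0.48 ± 0.14 (SE) at 3 weeks (edgeR adjusted p 0.197) and -0.10 ± 0.14 at 6 months (edgeR adjusted p 0.794), so transcript counts separated the arms by a small margin at 3 weeks and did not separate them at 6 months. The study reports, from a western blot, that HIRA protein was lost with the Hira guide when set against the Rosa26 control. Transcript counts of whole liver do not measure that protein. In 1 library, HIRA 6 months replicate 5, the X-linked Xist was near absent (9 counts) and 4 genes of the Y chromosome summed to 2041, against 6286 to 8436 and 0 to 13 elsewhere. Results are given with and without it for Foxa1, Foxa3, Cebpa, Prox1 and Nr5a2 and for correlations. For Foxa2 and Onecut1 only ranges over left-out libraries are given, in the closing section. Clock genes also differed between groups, with 5 of 9 evening genes (Dbp, Ciart, Per3, Nr1d2 and Tef) called higher in the HIRA group at 3 weeks and 4 of 9 (all but Ciart) called higher at 6 months in the Rosa26 group. With 1 library left out these calls ranged from 0 to 6 and from 0 to 5. The first fell to 0 without HIRA 3 weeks replicate 4 or 5 or Rosa26 3 weeks replicate 1, 2 or 4, and the second without Rosa26 3 weeks replicate 1, 3 or 4 or Rosa26 6 months replicate 3 or 4, while all 9 values at 3 weeks and at least 8 of 9 with time stayed above 0 in the 20 such fits. The mean log2 CPM of 9 evening clock genes minus that of 5 morning ones was -1.95 ± 0.36 (SD, n = 5) in the Rosa26 group at 3 weeks, against 0.77 ± 1.28 in HIRA mice of that time, 0.40 ± 0.92 in Rosa26 mice at 6 months and 0.78 ± 1.64 in HIRA mice at 6 months. Comparisons that use the Rosa26 group at 3 weeks therefore also compare different clock states, and the part of this in the members' values was not tested. Among 11 hepatocyte markers, summed CPM ranged from 112188 to 191492 over the 20 libraries, so that the defining transcripts of hepatocytes were abundant in each, and 8 biliary markers summed to 47.8 to 155 CPM, with Cftr at 0 counts in some libraries.

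Levels were compared between the genes only per length, as CPM per kilobase of merged exons. Cebpa stood highest with a mean of 158 ± 24.6 (SD over 20 libraries), followed by Hnf4a with 135 ± 15.7. These neighbours overlapped, and Cebpa was the higher of the pair in 15 of 20 libraries. Cebpb came next with 55.7 ± 13.9, below Hnf4a in all 20 libraries. Foxa3 had 25.2 ± 9.07 and Foxa2 15.5 ± 1.77 CPM per kilobase. Their ranges overlapped, with Foxa3 the higher in 17 of 20 libraries. Nr5a2 (10.2 ± 1.22) and Prox1 (9.64 ± 1.52) could not be ordered beyond their spread, since Nr5a2 was the higher in 13 of 20. Foxa1 followed with 4.28 ± 0.823, apart from both Prox1 above it and Onecut1 below it in every library. Onecut1 was lowest with 0.83 ± 0.335, on 40 to 150 counts a library. The deposited FPKM values gave the same order of means.

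**Figure D1:**
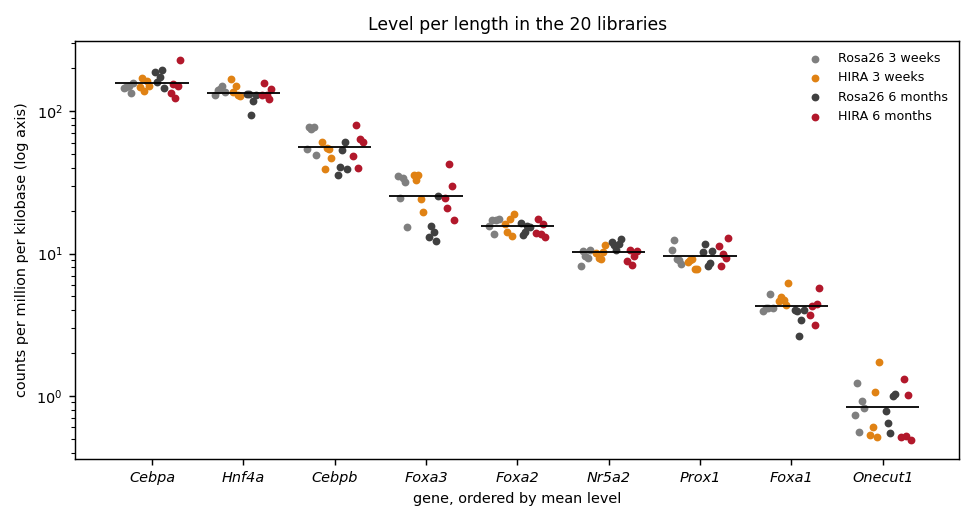
Level of each of the 9 genes per length (CPM per kilobase of merged exons, log axis) in the 20 livers, with a point for each library coloured by group and a line at the mean. The genes span from 158 for Cebpa to 0.83 for Onecut1, and among groups of the same harvest time or guide only Nr5a2 at 6 months does not overlap, with the HIRA libraries below the Rosa26 ones.

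Sequence before the transcription starts was searched, since these factors are known to act on each other's promoters. Windows of 250 bases before 14 RefSeq starts of the 9 genes (GRCm38.p6) were searched on both strands for 5 short words known from the factors' binding sites. The windows printed are those in which a word was found, and that of Onecut1, in which none was. The windows of Foxa3, Cebpa, Cebpb and Prox1, and those of the other starts of Hnf4a, Foxa2 and Nr5a2, held none and are not printed. Capitals mark the words found, and bases inside an annotated exon of the same gene were left out of what is printed. Hnf4a has an upstream start and, farther into the gene, the start used mainly in adult liver, and gene counts do not tell them apart.
Hnf4a, upstream start, chr2:163506607-163506807, plus strand: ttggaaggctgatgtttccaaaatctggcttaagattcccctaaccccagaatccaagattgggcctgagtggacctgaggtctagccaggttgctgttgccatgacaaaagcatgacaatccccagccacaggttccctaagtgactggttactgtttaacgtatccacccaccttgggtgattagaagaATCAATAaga
Foxa1, chr12:57546122-57546361, minus strand: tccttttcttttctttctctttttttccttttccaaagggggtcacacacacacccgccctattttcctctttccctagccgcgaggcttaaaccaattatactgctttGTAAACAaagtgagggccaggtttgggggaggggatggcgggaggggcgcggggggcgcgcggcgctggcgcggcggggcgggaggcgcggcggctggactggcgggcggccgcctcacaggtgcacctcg
Foxa2, chr2:148046970-148047219, minus strand: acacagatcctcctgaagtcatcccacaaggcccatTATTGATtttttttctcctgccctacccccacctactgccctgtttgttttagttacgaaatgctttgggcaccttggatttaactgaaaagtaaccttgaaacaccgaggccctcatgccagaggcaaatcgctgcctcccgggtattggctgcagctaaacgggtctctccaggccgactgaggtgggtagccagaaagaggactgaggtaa
Onecut1, chr9:74861671-74861920, plus strand: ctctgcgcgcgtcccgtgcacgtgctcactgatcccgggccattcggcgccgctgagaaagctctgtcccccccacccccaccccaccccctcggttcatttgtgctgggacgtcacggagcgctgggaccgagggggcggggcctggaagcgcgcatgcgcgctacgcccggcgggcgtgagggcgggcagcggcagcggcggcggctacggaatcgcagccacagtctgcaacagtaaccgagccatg
Nr5a2, downstream start, chr1:136953631-136953880, minus strand: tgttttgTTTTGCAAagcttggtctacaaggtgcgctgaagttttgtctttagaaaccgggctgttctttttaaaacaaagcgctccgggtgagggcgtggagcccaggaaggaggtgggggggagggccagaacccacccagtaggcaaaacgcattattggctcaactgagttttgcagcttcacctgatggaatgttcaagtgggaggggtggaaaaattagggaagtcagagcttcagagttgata

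The ONECUT1 word ATCAATA stood at position -59 from the upstream start of Hnf4a and at -214 from that of Foxa2, in 2 of the 14 windows and in 1.86% of 32851 windows of all genes. The forkhead word TGTTTAC was found once, at -141 from Foxa1 (3.17% of all windows). The C/EBP word TTGCNNAA was found once, at -243 from the downstream start of Nr5a2 (9.56%). The 9 bases CAAAGTCCA of HNF4A (0.384% of all windows) and CAAGGTCA of NR5A2 (1.33%) were in none of the 14, and neither was any of the 5 words in the printed Onecut1 window. A match is a run of letters and not a bound site, and an absent match says only that these letters are not in the window.

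Across the 5 comparisons no member passed both thresholds used by the study, an adjusted p under 0.05 and a log2 fold change above 1 in either direction. In the edgeR quasi-likelihood test the adjusted p alone was also above 0.05 for all 9 genes in each comparison.

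At 3 weeks the guide against Hira left the members close to the control. Of 9, 6 had a fitted value above 0 and 3 below, between -0.38 and 0.20 on the log2 scale with a median of 0.06 (-0.01 over all 22867 tested genes), and all 9 intervals of 95% lay within a 2-fold change. None was called, where 0.114% of all tested genes were (26 genes) and 0.197% passed the adjusted p alone. An unadjusted p under 0.05 was seen for 1 of 9, against 8.87% of all genes, and no member had groups that did not overlap (2.69% of all genes). Without HIRA 3 weeks replicate 1, 4 of 9 were above 0 with a median of -0.01, and without replicate 4 of that group 7 were, with 0.06. At 6 months the fitted values ranged from -0.29 to 0.75 with a median of 0.07 (0.03 over all genes), 5 above 0 and 4 below. Again none was called (0.332% of all genes, 76 genes; 1.31% by the adjusted p alone). The unadjusted p was under 0.05 for 2 of 9 (15.5% of all genes), and 1 member, Nr5a2, had groups that did not overlap (3.15% of all genes). Here 8 of 9 intervals lay within a 2-fold change, and that of Foxa3 did not. The 6-month median was 0.01 without Rosa26 6 months replicate 3 and 0.14 without replicate 2 of that group, with 5 of 9 above 0 in both.

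Between the harvest times, the Rosa26 group had 2 members higher and 7 lower at 6 months, with values from -0.81 to 0.28 and a median of -0.12 (0.00 over all genes). None was called (0.162% of all genes; 0.324% by the adjusted p alone), 3 of 9 had an unadjusted p under 0.05 (12.8% of all genes), and none had groups apart (3.5% of all genes). Without Rosa26 6 months replicate 3, 4 of 9 were higher with a median of -0.09, and without replicate 5 of that group 2 were, with -0.20. In the HIRA group 3 were higher and 6 lower, within -0.22 and 0.27, with a median of -0.07 (0.03 over all genes). None was called (0.0569% of all genes; 0.0656% by the adjusted p alone), 1 of 9 had an unadjusted p under 0.05 (8.95% of all genes), and none had groups apart (1.47% of all genes). The median was -0.02 without HIRA 3 weeks replicate 5, with 4 of 9 higher, and -0.11 without HIRA 6 months replicate 2, with 3 higher. For the change of the guide effect between the times, no member and no gene at all was called by edgeR (0.0% of 22867), while 2 of 9 members and 6.62% of all genes had an unadjusted p under 0.05; DESeq2 also called none. Only 6 of 9 intervals of this change lay within a 2-fold change, so that it was measured less closely than the guide effects themselves.

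**Figure D2:**
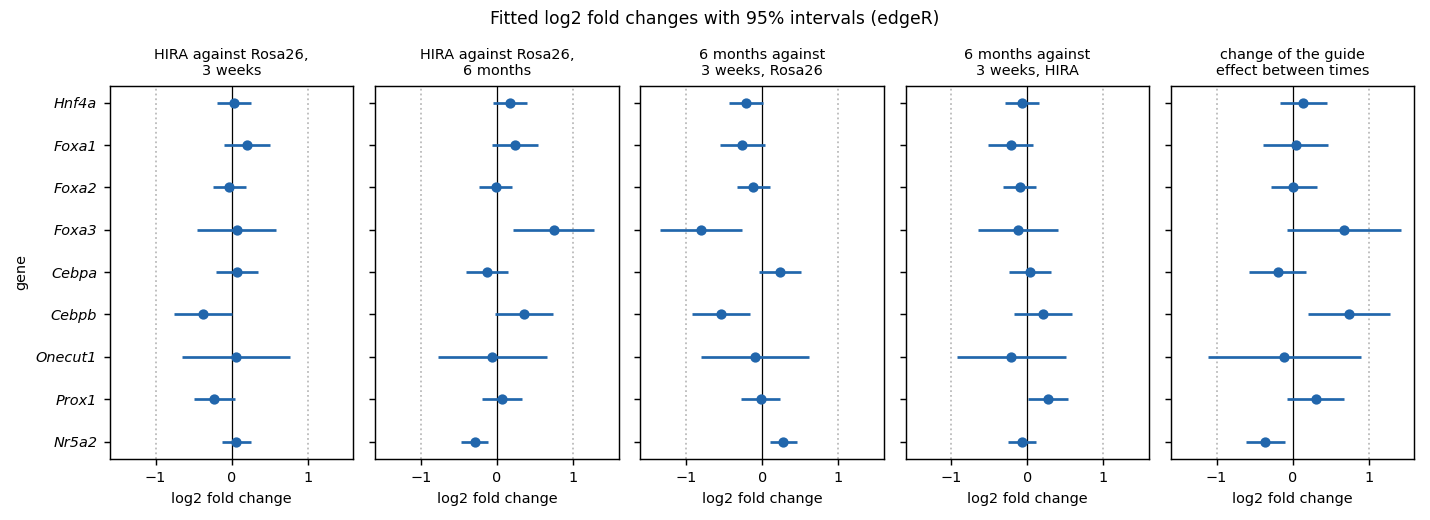
Fitted log2 fold change of each gene (points) with its 95% interval (lines) from edgeR in the 5 comparisons, the dotted lines marking a 2-fold change. Foxa3 and Nr5a2 lie away from 0 in opposite directions at 6 months (0.75 and -0.29), and Onecut1 has the widest intervals.

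HNF4A heads the circuit, and its gene (ENSMUSG00000017950.16, chr2:163506808-163572910, plus strand) varied little. Replicates 1 to 5 of the Rosa26 mice had 630.2, 676, 687, 721 and 660.3 CPM of Hnf4a at 3 weeks, and those of the HIRA mice 817, 663, 721, 631 and 617. Values at 6 months were 636, 641, 452, 569 and 624 CPM under the control guide, and 624, 764, 624, 584 and 692 under the Hira guide. All 4 groups overlapped, the lowest library belonged to the Rosa26 group at 6 months and the highest to the HIRA group at 3 weeks. The guide effect was 0.03 ± 0.11 on the log2 scale at 3 weeks (SE, edgeR adjusted p 0.975) and 0.17 ± 0.11 at 6 months (edgeR adjusted p 0.475). Its 95% intervals ran from 0.877-fold to 1.19-fold and from 0.966-fold to 1.31-fold. With time, Hnf4a was lower by 0.21 ± 0.11 in the Rosa26 group (log2, edgeR adjusted p 0.43) and by 0.07 ± 0.11 in the HIRA group (edgeR adjusted p 0.904). Without Rosa26 6 months replicate 3, the lowest library, the guide effect at 6 months was 0.09 ± 0.10 (edgeR adjusted p 0.706) and the value with time in the Rosa26 group -0.13 ± 0.10 (edgeR adjusted p 0.692), and without HIRA 6 months replicate 2 the former was 0.11 ± 0.11 (edgeR adjusted p 0.685). The antisense gene Hnf4aos overlaps it and had 0.706% as many counts. In FPKM, 2 of the 20 Hnf4a cells were blank, both at 6 months.

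The FOXA family, which opens nucleosomal DNA for other factors, has 3 members in liver. Foxa1 (ENSMUSG00000035451.7, chr12:57540628-57546916, minus strand) had 13.2, 13.8, 13.7, 17.4 and 13.7 CPM in Rosa26 mice 3 weeks after injection, and HIRA mice had 15.5, 16.5, 15.6, 14.5 and 20.5. The later livers held 13.4, 13.1, 8.78, 11.3 and 13.3 CPM with the control guide, then 12.2, 14.3, 10.5, 14.8 and 19.1 with the Hira guide. Its mean was higher in the HIRA group at both times, but the groups overlapped, and replicate 4 stood above the other 4 of its Rosa26 group at 3 weeks. The log2 fold change was 0.20 ± 0.14 at 3 weeks and 0.24 ± 0.14 at 6 months (SE, edgeR adjusted p 0.762 and 0.458). Without HIRA 3 weeks replicate 5, the highest of its group, the first value was 0.11 ± 0.15 (edgeR adjusted p 0.963). At 6 months it was 0.11 ± 0.14 without HIRA replicate 5, again the highest of its group (edgeR adjusted p 0.733), and 0.15 ± 0.14 without Rosa26 replicate 3 (edgeR adjusted p 0.656).

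Foxa2 (ENSMUSG00000037025.11, chr2:148042877-148046969, minus strand), which also acts in bile acid and glucose metabolism, differed little between the groups. It had 36.7, 40.8, 32.7, 40.9 and 41.5 CPM in Rosa26 mice 3 weeks after injection, and HIRA mice had 37.9, 33.4, 41.2, 31.3 and 45.2. By 6 months Rosa26 mice had 38.7, 31.8, 33.4, 37.2 and 36.6 CPM, and HIRA mice 33.01, 41.2, 32.7, 38.3 and 30.9. All 20 libraries lay between 30.9 and 45.2 CPM, with no group apart. The guide effect was -0.03 ± 0.10 at 3 weeks and -0.01 ± 0.10 at 6 months on the log2 scale (edgeR adjusted p 0.978 and 0.972), with intervals of 0.846-fold to 1.14-fold and 0.854-fold to 1.15-fold.

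Foxa3 (ENSMUSG00000040891.6, chr7:19013284-19023538, minus strand), the family member most abundant per length in these livers, gave the largest fitted differences of the 9 at 6 months and between the times in the Rosa26 group. Rosa26 mice had 71.9, 50.3, 68.8, 64.8 and 31.5 CPM at 3 weeks, where HIRA mice had 72.95, 66.9, 72.3, 48.99 and 39.6. Values at 6 months were 26.6, 31.9, 28.7, 24.97 and 52.1 CPM under the control guide, and 49.9, 42.9, 86.9, 60.8 and 34.9 under the Hira guide. In the Rosa26 group at 6 months 4 of 5 libraries lay below every HIRA library of that time, and only replicate 5 reached into their range. The log2 fold change was 0.75 ± 0.26 at 6 months (SE; 1.68-fold, 95% interval 1.16 to 2.43; unadjusted and edgeR adjusted p 0.00831 and 0.152, from the model fitted across all genes) and 0.07 ± 0.25 at 3 weeks (edgeR adjusted p 0.977). With time it was -0.81 ± 0.26 in the Rosa26 group (0.572-fold, 0.395 to 0.828; edgeR adjusted p 0.164) and -0.13 ± 0.25 in the HIRA group (edgeR adjusted p 0.932). Both of the larger values use the Rosa26 group at 6 months, so they share its 5 libraries. Without replicate 5 of that group the values were 0.97 ± 0.25 and -1.03 ± 0.25 (edgeR adjusted p 0.0738 and 0.0923), and without HIRA 6 months replicate 3, at 86.9 CPM, the guide effect was 0.52 ± 0.25 (edgeR adjusted p 0.35). Without HIRA 6 months replicate 5, the lowest of its group, the guide effect was 0.87 ± 0.25 (edgeR adjusted p 0.0784). The change of the guide effect between times was 0.68 ± 0.36 (95% interval -0.07 to 1.43; edgeR adjusted p 0.79). Within groups Foxa3 was also among the most variable members, with a coefficient of variation of up to 36.6%.

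The C/EBP factors are leucine zipper proteins. Cebpa, which restrains hepatocyte growth and drives metabolic genes (ENSMUSG00000034957.10, chr7:35119293-35121928, plus strand), had 382, 387, 396, 352 and 414 CPM in Rosa26 mice 3 weeks after injection, and HIRA mice had 391, 453, 363, 429 and 397. The later livers held 499, 426, 456, 511 and 384 CPM with the control guide, then 351, 411, 324, 393 and 606 with the Hira guide. The highest of all 20 was HIRA 6 months replicate 5, the library whose sex-linked counts go against its label. The guide effect on the log2 scale was 0.07 ± 0.13 at 3 weeks (edgeR adjusted p 0.944) and -0.13 ± 0.13 at 6 months (edgeR adjusted p 0.709). Without that library the 6-month value was -0.30 ± 0.10 (edgeR adjusted p 0.119), and the remaining 4 HIRA libraries still overlapped the control. It was -0.05 ± 0.13 without HIRA replicate 3 (edgeR adjusted p 0.93).

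Cebpb (ENSMUSG00000056501.3, chr2:167688915-167690418, plus strand), which is induced in regeneration and in the acute phase response, had 82.1, 117, 113, 117 and 73.8 CPM in Rosa26 mice 3 weeks after injection, and HIRA mice had 90.97, 58.9, 83.4, 81.7 and 70.2. By 6 months Rosa26 mice had 53.9, 60.8, 80.8, 91.04 and 58.8 CPM, and HIRA mice 73.3, 121, 60.1, 95.3 and 92.1. The 3 highest libraries of the Rosa26 group at 3 weeks lay above the whole HIRA group of that time, and the other 2 lay inside it. The log2 fold change was -0.38 ± 0.18 at 3 weeks (0.767-fold, 95% interval 0.589 to 0.999) and 0.36 ± 0.18 at 6 months (1.28-fold, 0.981 to 1.67), with edgeR adjusted p of 0.562 and 0.362. Without HIRA 6 months replicate 2, the highest of all 20, the latter was 0.21 ± 0.18 (edgeR adjusted p 0.623). The difference between these effects was 0.74 ± 0.26 (0.20 to 1.28), the largest of the 9, with an unadjusted p of 0.0098 and an edgeR adjusted p of 0.685. In the Rosa26 group it was lower at 6 months by 0.54 ± 0.18 (log2, edgeR adjusted p 0.197), a comparison that shares libraries with both guide effects. Acute phase genes, which C/EBP factors are known to drive, had a median log2 fold change of -1.22 at 3 weeks and -1.51 at 6 months over 8 genes, of which none passed the adjusted p, and their summed level in the Rosa26 groups ranged from 3859 to 24084 CPM at 3 weeks and 5263 to 15781 at 6 months, against 3372 to 4962 and 4714 to 6662 in the HIRA groups. Without Rosa26 3 weeks replicate 2 the 3-week median of these genes was 0.05, with 5 of 8 above 0. The 6-month median was -1.69 without Rosa26 6 months replicate 1 and -1.34 without replicate 2 of that group, with 0 of 8 above 0 in both. Their part in the Cebpb values was not tested. Tmem189 overlaps Cebpb on the other strand and had 17.2% as many counts, and whether the counting used strand is not given in the sources used here.

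**Figure D3:**
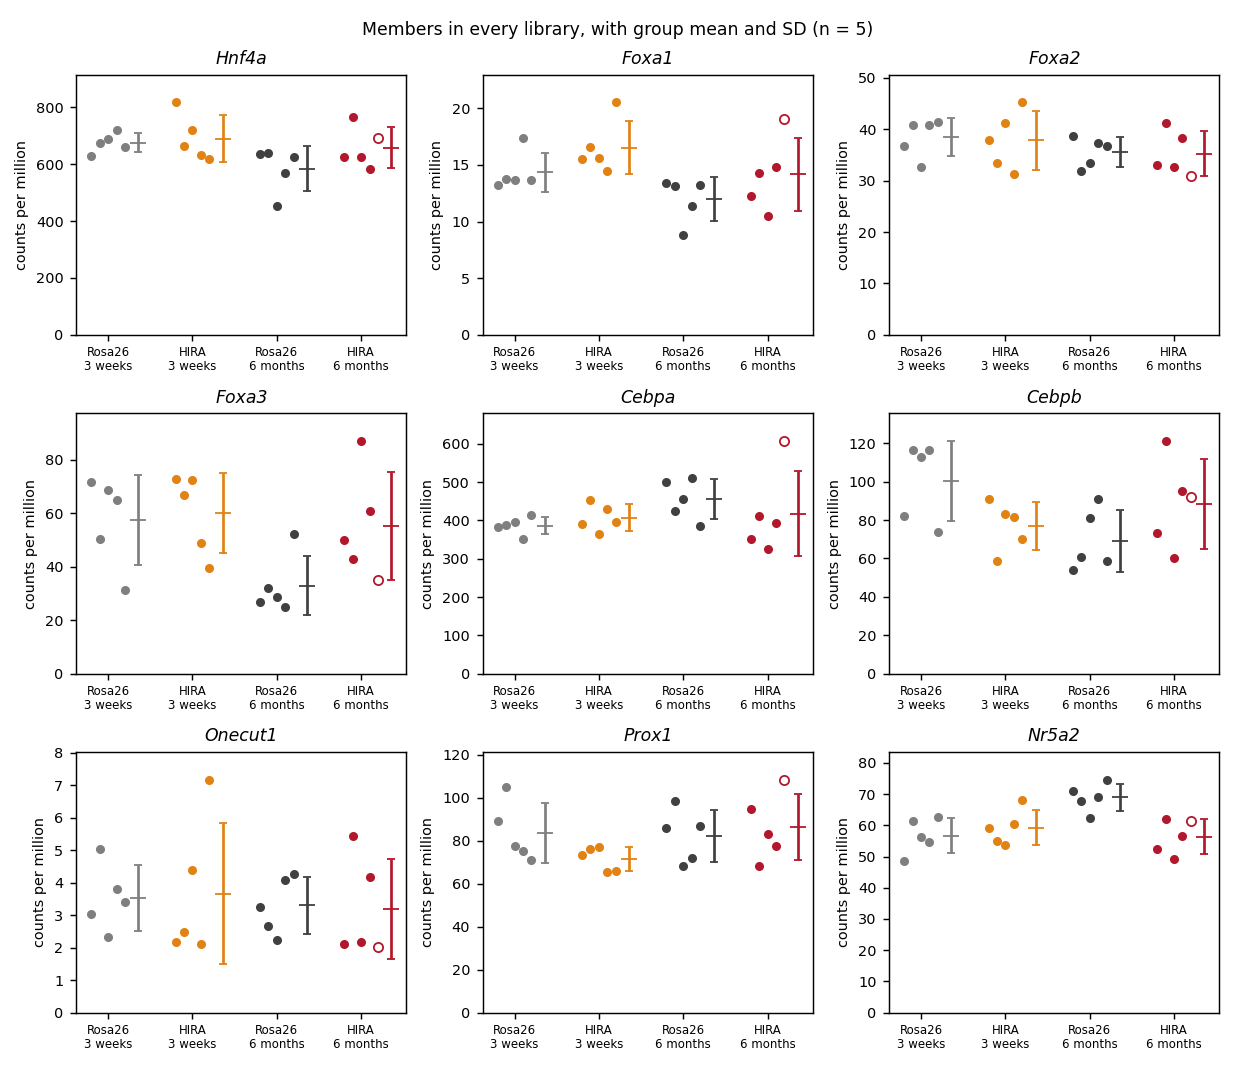
CPM of each gene in every library by group, in order of replicate number from left to right, with the group mean and SD beside the points (n = 5). The open point is HIRA 6 months replicate 5; the Rosa26 group at 6 months stands low for Foxa3, 4 of 5 libraries at 24.97 to 31.92, and high for Nr5a2, at 62.34 to 74.50.

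ONECUT1, PROX1 and NR5A2 complete the set. Onecut1, known as HNF6 and needed for bile duct as well as hepatocyte development (ENSMUSG00000043013.10, chr9:74861921-74891781, plus strand), was scarce, with 3.04, 5.04, 2.31, 3.79 and 3.40 CPM in Rosa26 mice 3 weeks after injection, and HIRA mice had 2.17, 2.48, 4.40, 2.10 and 7.15. Values at 6 months were 3.24, 2.66, 2.24, 4.08 and 4.27 CPM under the control guide, and 2.11, 5.42, 2.16, 4.16 and 2.03 under the Hira guide. The libraries of each group spread widely, and the groups overlapped throughout. The guide effect was 0.06 ± 0.34 and -0.06 ± 0.34 on the log2 scale at the 2 times (edgeR adjusted p 0.988 and 0.961), and its 95% intervals, 0.635-fold to 1.70-fold and 0.587-fold to 1.58-fold, were the widest of the 9. Differences within these bounds could not be told from none with 5 mice a group.

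Prox1 (ENSMUSG00000010175.13, chr1:190118035-190170714, minus strand), a homeodomain factor of hepatoblasts that is also made in lymphatic endothelium, had 89.2, 105, 77.3, 75.1 and 70.8 CPM in Rosa26 mice 3 weeks after injection, and HIRA mice had 73.2, 75.9, 76.8, 65.3 and 65.8. The later livers held 86.05, 98.2, 68.2, 72.00 and 86.8 CPM with the control guide, then 94.8, 68.3, 82.9, 77.6 and 108 with the Hira guide. The HIRA group at 3 weeks was the tightest, within 65.3 to 76.8 CPM, and it overlapped the lower part of the control. The log2 fold change was -0.23 ± 0.13 at 3 weeks and 0.07 ± 0.13 at 6 months (edgeR adjusted p 0.663 and 0.855), and between the times it was 0.27 ± 0.13 in the HIRA group (0.01 to 0.54; edgeR adjusted p 0.539). HIRA 6 months replicate 5 had the most Prox1 of all 20, and without it the last value was 0.18 ± 0.12 (edgeR adjusted p 0.666) and the guide effect at 6 months -0.02 ± 0.12 (edgeR adjusted p 0.948). Without Rosa26 3 weeks replicate 2, the highest of that group, the guide effect at 3 weeks was -0.13 ± 0.12 (edgeR adjusted p 0.95). The antisense gene Prox1os had 8.96% as many counts.

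Nr5a2 (ENSMUSG00000026398.14, chr1:136842571-136960448, minus strand) encodes LRH-1, a nuclear receptor that supports bile acid and cholesterol genes. Rosa26 mice had 48.5, 61.2, 56.2, 54.8 and 62.6 CPM at 3 weeks, where HIRA mice had 59.2, 55.1, 53.8, 60.3 and 68.1. By 6 months Rosa26 mice had 70.9, 67.9, 62.3, 69.03 and 74.5 CPM, and HIRA mice 52.3, 62.2, 49.2, 56.5 and 61.5. At 6 months all 5 HIRA libraries lay below all 5 controls, by a narrow gap between 62.2 and 62.3 CPM. The log2 fold change was -0.29 ± 0.09 (SE; 0.817-fold, 95% interval 0.721 to 0.926), with an unadjusted p of 0.00295 and an edgeR adjusted p of 0.0964. DESeq2, run as an alternative, gave -0.30 ± 0.09 and an adjusted p of 0.0231, still under the 2-fold threshold. At 3 weeks the value was 0.06 ± 0.09 (0.923-fold to 1.19-fold; edgeR adjusted p 0.915). In the Rosa26 group Nr5a2 was higher at 6 months by 0.28 ± 0.09 (1.22-fold, 1.07 to 1.38; edgeR adjusted p 0.149; DESeq2 adjusted p 0.0455), and in the HIRA group the value was -0.07 ± 0.09 (edgeR adjusted p 0.864). The first of these shares the Rosa26 libraries of 6 months with the guide effect at that time. The change of the guide effect was -0.36 ± 0.12 (-0.61 to -0.10) with an edgeR adjusted p of 0.685. Without HIRA 6 months replicate 5 the guide effect was -0.32 ± 0.09 (edgeR adjusted p 0.0689). It was -0.25 ± 0.09 without HIRA 6 months replicate 3 (edgeR adjusted p 0.197) and -0.29 ± 0.09 without Rosa26 6 months replicate 4 (edgeR adjusted p 0.202).

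Livers of a group also differed from each other, and the members were compared across the 20 libraries after each group's mean was removed. Of 36 pairs, 24 had a positive Pearson r; 1 passed the adjusted p by Pearson's r and 2 by Spearman's rho. Foxa2 and Onecut1 varied together with r = 0.88 and Spearman's rho 0.86 (within-group permutation p 3e-05 and 0.00022, adjusted over 36 pairs 0.00108 and 0.00792). The r was 0.87 without the 2 libraries farthest from the median of Foxa2, and 0.87 without HIRA 6 months replicate 5 (adjusted p 0.00432, permutation test). The library with the most Onecut1 also had the most Foxa2 in both HIRA groups and in neither Rosa26 group. The 2 genes were counted in the same libraries, and Onecut1 rests on few counts. Foxa3 and Cebpa went in opposite directions, with r = -0.65 and rho -0.67 (permutation p 0.00303 and 0.00253, adjusted 0.0545 and 0.0455), and r was -0.60 without the 2 farthest libraries. Without HIRA 6 months replicate 5 it was -0.63, with adjusted p of 0.0947 for r and 0.123 for rho in the permutation test. Foxa1 with Nr5a2 (r = 0.61, rho 0.62) and Foxa3 with Nr5a2 (r = -0.60, rho -0.65) were next, with adjusted permutation p of 0.0974 and 0.131 for r, and 0.0786 and 0.0737 for rho.

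**Figure D4:**
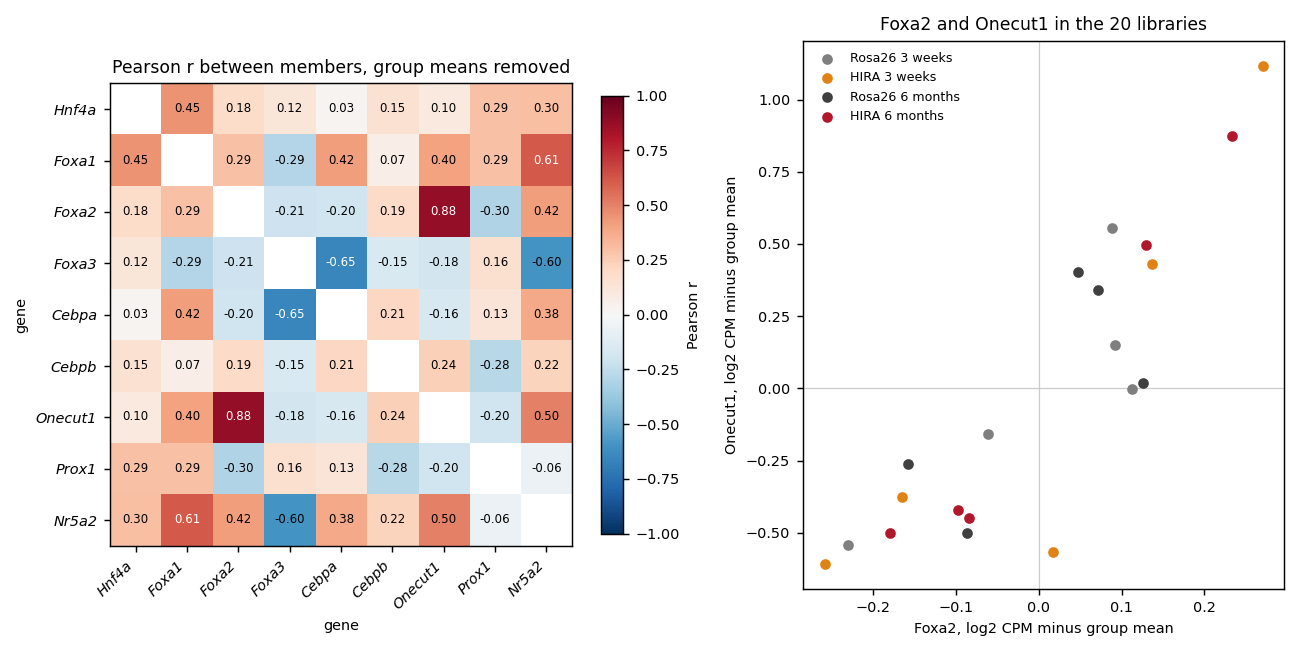
Left, Pearson r of log2 CPM between the 9 genes over 20 libraries with group means removed; right, Foxa2 against Onecut1 in the same libraries (log2 CPM minus the group mean, coloured by group). Foxa2 and Onecut1 rise together (r = 0.88), and Foxa3 runs against Cebpa (-0.65) and Nr5a2 (-0.60).

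The clock index, taken the same way, was related to none of the 9 at an adjusted p under 0.05 (permutation test, smallest 0.367 for r and 0.0909 for rho); before adjustment 0 of 9 were under 0.05 by r, and by rho Foxa3, Cebpa and Prox1 were. Prox1 had r = -0.44 and rho -0.59 (permutation p 0.0728 and 0.0101, adjusted 0.367 and 0.0909), and r = -0.40 without the 2 libraries farthest from the median. Without HIRA 6 months replicate 5 this became r = -0.64 and rho -0.78 (adjusted permutation p 0.00954 and 0.00072). That relation thus passed the adjusted p only with 19 libraries.

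For each member the genes most like it over the 20 libraries were also looked up among 12903 genes with at least 1 CPM on average, as a description. By Pearson's r, those of Foxa2 were Onecut1, Qtrt2 and As3mt (0.879, 0.742 and 0.724), and those of Onecut1 were Foxa2, Fbxo46 and Rbm20 (0.879, 0.791 and 0.786). For Hnf4a they were Smim13, Ell2 and Numb (0.837, 0.803 and 0.799), for Foxa1 Srrm2, Fam210b and Med12 (0.859, 0.835 and 0.83), and for Foxa3 Ddx5, Ets2 and Zdhhc20 (0.829, 0.829 and 0.796). Those of Cebpa were Tiam2, Tmem19 and Immt (0.885, 0.882 and 0.881) and those of Cebpb Mfsd2a, Ptma and 1810055G02Rik (0.793, 0.788 and 0.771). Prox1 was most like Ftsj3, Zbtb7c and Mcmbp (0.827, 0.813 and 0.805), and Nr5a2 most like mt-Nd5, Atg9a and Pm20d1 (0.87, 0.859 and 0.858). These are the 3 highest of 12903 values for each member, over 20 libraries.

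Other transcription factors of liver were counted from a list of 26, all of which were tested. None was called in any comparison, and 1 passed the adjusted p alone. That gene was Hhex, a homeobox factor of the early liver bud that is also made in endothelium. It had 51.1, 55.0, 52.2, 52.6 and 85.0 CPM in the Rosa26 group at 6 months and 102, 79.6, 101, 85.0 and 87.2 in the HIRA group, where 4 of 5 controls lay below every HIRA library and replicate 5 reached 85.0. This is the same control library that stood high for Foxa3. The log2 fold change was 0.62 ± 0.15 at 6 months (SE, edgeR adjusted p 0.0412), and the adjusted p was under 0.05 in 13 of 28 alternative fits (0.00598 to 0.141), with a log2 fold change of 0.57 to 0.79 in all of them. At 3 weeks it was 0.10 ± 0.15 (edgeR adjusted p 0.927). Of the 26, 13 were higher and 13 lower at 3 weeks, with a median of 0.0, and 17 were higher and 9 lower at 6 months, with a median of 0.04. The 6-month count was 13 of 26 higher without Rosa26 6 months replicate 3, with a median of 0.01. It was 18 of 26 without HIRA 6 months replicate 4, with a median of 0.11. The most counted of the list were Atf5, a stress-responsive factor, with -0.39 ± 0.16 at 3 weeks (edgeR adjusted p 0.471), and Rxra, the partner of many nuclear receptors, with -0.14 ± 0.11 (edgeR adjusted p 0.8).

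Genes that these factors are known to drive were counted in the same way. Of 26 target genes, all tested, none was called and none passed the adjusted p in any of the 5 comparisons. At 3 weeks 6 were higher and 20 lower in the HIRA group (median -0.09), and at 6 months 14 were higher and 12 lower (median 0.03). With time 19 of 26 were lower in the Rosa26 group (median -0.14) and 18 of 26 in the HIRA group (median -0.05). With 1 library left out the median in the Rosa26 group ran from -0.20 to -0.08. In the HIRA group it was 0.0 without HIRA 6 months replicate 3, with 13 of 26 above 0, and -0.13 without HIRA 6 months replicate 5, with 5 above 0. The latter library also moved the 6-month guide effect, to 11 of 26 above 0 and a median of -0.06. The medians over all tested genes were -0.01, 0.03, 0.00 and 0.03 in these 4 comparisons. Albumin (Alb), the most abundant, had 0.28 ± 0.17 and 0.35 ± 0.17 at the 2 times on the log2 scale (edgeR adjusted p 0.707 and 0.32), and transthyretin (Ttr), which carries thyroid hormone, had -0.11 ± 0.16 and 0.21 ± 0.16 (edgeR adjusted p 0.916 and 0.566). The smallest edgeR adjusted p among targets was 0.059, for a lower value of the glucose-6-phosphatase gene G6pc at 6 months in the Rosa26 group (-1.49 ± 0.34), chosen here after its value was seen. Of 6 fetal liver genes none passed the adjusted p, with 2 above 0 at 3 weeks (median -0.26) and 5 at 6 months (median 0.59); Afp had 0.00 ± 0.26 at 3 weeks and -0.10 ± 0.26 at 6 months (edgeR adjusted p 1.0 and 0.909), and Cd24a, the most counted, had 0.03 ± 0.32 and 0.43 ± 0.32 (edgeR adjusted p 0.997 and 0.563). H19, an imprinted RNA of fetal liver, had the largest values of the list, 2.29 ± 0.99 at 6 months (unadjusted p 0.0312, edgeR adjusted p 0.265) and 4.06 ± 1.13 between the times in the HIRA group (unadjusted p 0.00174, edgeR adjusted p 0.219), and it was chosen here after its values were seen. Both rest on HIRA 6 months replicate 3, which held 824 counts of H19 against 1 to 95 in the other libraries. Without that library they were -1.12 ± 0.67 and 0.66 ± 0.73 (edgeR adjusted p 0.499 and 0.847), and the fetal list at 6 months had 2 of 6 genes above 0 and a median of -0.18. Without HIRA 6 months replicate 5 it had 6 of 6 above 0 and a median of 0.83, and at 3 weeks its median ran from -0.50 to -0.05, without Rosa26 replicate 1 and HIRA replicate 3 of that time.

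Because whole liver was sequenced, fewer cells of a type and less RNA per cell cannot be told apart. Among 11 hepatocyte markers 1 passed the adjusted p, Asgr1, the asialoglycoprotein receptor, at 6 months. All 5 HIRA libraries, at 436 to 526 CPM, lay below the 5 controls, at 602 to 694, a difference of -0.34 ± 0.08 on the log2 scale (edgeR adjusted p 0.047, and 0.00061 to 0.162 over the alternatives, 8 of 28 under 0.05). At 3 weeks 2 of the 11 markers were higher and 9 lower in the HIRA group, with a median of -0.16 (-0.21 to -0.10 with 1 library left out) and none past the adjusted p. The list had a median of 0.01 at 6 months, with 6 higher and 5 lower, and without HIRA replicate 5 of that time 3 were higher and the median was -0.15. Markers of other cell types were measured beside the 6-month values of Foxa3, Nr5a2 and Hhex. None of these genes passed the adjusted p, but 6 of 6 endothelial markers had a value above 0 (median 0.33), as did 8 of 8 stellate cell markers (0.50) and 6 of 8 biliary markers (0.19), against 2 of 8 for Kupffer cells (-0.13). All 7 lymphocyte markers were above 0 (median 0.30) and 3 of 4 neutrophil markers below it (-0.67). Some of these medians rest on 1 library: without HIRA 6 months replicate 3 that of the stellate markers was 0.06 and that of the biliary markers 0.06, without Rosa26 6 months replicate 3 that of the Kupffer cell markers was 0.73 and that of the 3 neutrophil markers then tested 0.13, and without Rosa26 6 months replicate 4 that of the lymphocyte markers was 0.13. Other fits moved these medians the other way. Without HIRA 6 months replicate 5 the stellate median was 0.63 and the biliary one 0.36. Without HIRA 6 months replicate 4 the Kupffer cell median was -0.58, and without replicate 1 of that group the neutrophil median was -0.96. Without Rosa26 6 months replicate 3 the lymphocyte median was 0.78. The endothelial median stayed between 0.23 and 0.44 with any library left out. Summed endothelial markers ranged from 120 to 202 CPM in the Rosa26 group and 147 to 232 in the HIRA group at 6 months, and summed stellate markers from 200.2 to 369 and 221 to 864. Their part in the members' values was not tested. The 9 members together summed to 1357 to 1456 CPM in the Rosa26 group and 1330.3 to 1559.9 in the HIRA group at 3 weeks, and to 1192 to 1428 and 1273 to 1647 at 6 months, with the groups overlapping at both times.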

How the data were processed

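RNA-seq of 20 livers (4 groups of 5 mice) was analysed from 2 kinds of deposited values. The authors aligned reads to mm10 and deposited raw counts per gene and FPKM values; the labels name STAR, HTSeq and Cufflinks, while the study's methods name HOMER for counting, and strand use in counting is not given in the sources used here. Samples were grouped by their labels. Counts were tested with edgeR 4.0.16 (quasi-likelihood, TMM) in R 4.3.3 over all 20 libraries and the 22867 genes with at least 10 counts in total, with Benjamini-Hochberg adjustment over all of them; called means an adjusted p under 0.05 and an absolute log2 fold change above 1. The p-values measure the spread between mice. Alternatives were DESeq2 1.42.0, its size factors, no filter, filterByExpr, a replicate block, only the groups compared, limma 3.58.1 on log2(FPKM + 1) or log2(FPKM + 0.1) of the deposited FPKM, and leaving out each library. Correlations used log2 CPM (prior count 2) minus group means and 100000 two-sided permutations within groups. All 9 genes were named; of other lists, the genes past the adjusted p in a comparison or, in comparisons with none, the 2 with the highest level (given for the transcription factor, target and fetal lists), besides G6pc and H19, chosen after their values were seen; and, for each member, the 3 genes most like it. Members and lists were chosen with earlier results of these data known. Fits were tested on simulated data. Gene positions come from GENCODE M21 (GRCm38, mm10), which matched 98.5% of the IDs, and start-site sequences from RefSeq (GRCm38.p6). Depth was 19916430 to 24079736 counts per library.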

Additional observations from a re-analysis of the deposited data

Results flagged for a closer look

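In 36 sets of 5 libraries (9 genes in 4 groups), 2 held a library farther from the others than Dixon's critical value of 0.71 for the gap over the range, and chance alone flags about 1 in 20 such sets. Foxa3 had 52.1 CPM in Rosa26 6 months replicate 5, against 31.9 in the next highest library, a gap of 0.744 of the range. This is the control library that overlaps the HIRA group at 6 months, and the guide effect on Foxa3 was 0.75 with it and 0.97 without it on the log2 scale. Foxa1 had 17.4 CPM in Rosa26 3 weeks replicate 4, against 13.8 in the next highest, a gap of 0.867 of the range.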

How the results depend on the processing

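No member was called in any comparison under the 8 other settings or with any of the 20 libraries left out. With DESeq2, 1 member passed the adjusted p alone at 6 months (Nr5a2, -0.30, adjusted p 0.0231) and 1 between the times in Rosa26 (Nr5a2, 0.29, adjusted p 0.0455), where edgeR gave none; the cause was not tested. Of 1251 single-gene alternatives, 62 turned the sign of 15 small values, the largest of them 0.21 in size. With FPKM + 1 and FPKM + 0.1, Foxa2 became 0.03 and 0.03 at 3 weeks and 0.04 and 0.04 at 6 months, Onecut1 0.06 and 0.08 at 6 months and 0.01 and 0.03 between times in Rosa26, Cebpa -0.02 and -0.02 between times in HIRA, and Foxa1 -0.03 and -0.03 for the change of the guide effect. For that change Foxa2 became -0.00 with DESeq2 and -0.00 with its size factors. With a library left out, the ranges that crossed 0 were -0.10 to 0.03 (Foxa2), -0.09 to 0.18 (Foxa3), -0.04 to 0.07 (Hnf4a) and -0.34 to 0.22 (Onecut1) at 3 weeks; -0.08 to 0.03 (Foxa2), -0.34 to 0.06 (Onecut1) and -0.02 to 0.14 (Prox1) at 6 months; -0.21 to 0.07 (Onecut1) and -0.09 to 0.07 (Prox1) between times in Rosa26; and -0.14 to 0.12 (Cebpa), -0.34 to 0.0 (Foxa3) and -0.49 to 0.19 (Onecut1) between times in HIRA. For the change of the guide effect they were -0.09 to 0.13 (Foxa1), -0.05 to 0.09 (Foxa2) and -0.39 to 0.28 (Onecut1). The number of members related to the clock index rose from 0 to 1 without HIRA 6 months replicate 5. The labels do not say whether replicate numbers pair the mice, and the main fit did not pair them. The 30 same-number pairs of libraries had correlations of -0.31 to 0.33 (median 0.08), 14 of them above 0.1. Of 60 comparisons, 21 were best with their own number, where 12 would be if numbers carried nothing. Whether libraries of the same number share a source was not tested. With the replicate block 0 members passed the adjusted p, and Nr5a2 at 6 months was -0.29 (adjusted p 0.0536).

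Counts of all genes called moved more. At 3 weeks 26 became 64 with DESeq2, 61 with only the groups compared and 14 with FPKM + 1, and at 6 months 76 became 127, 0 and 18. Between times in Rosa26, 37 became 157, 67 and 11, and 61 with the replicate block. Between times in HIRA, 13 became 74, 8 and 4, 25 with no filter, 26 with the replicate block and 8 with FPKM + 0.1. With a library left out the counts ran from 3 to 43, 18 to 109, 1 to 83 and 5 to 25 in these comparisons and from 0 to 1 for the change of the guide effect.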
